A study of Mus musculus with 2 samples.

Results

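The 5p arms of the mouse miRNAs numbered miR-6896 to miR-7094 were examined in the exosomal RNA of BMSCs, the mesenchymal stem cells of mouse bone marrow, which can form bone, cartilage and fat. Every name on the array with a number in this range, with or without a letter after it, and the ending 5p was taken. This gave 201 of the 1881 mouse miRNAs on the array, and the naming rule itself uses no measured value. Exosomes, small vesicles released by cells, were isolated from culture medium after 72 h, either from BMSCs in normoxia or from BMSCs in a hypoxic workstation at 0.2% oxygen. The BMSCs were a purchased stock of C57BL/6 origin, and the donors' age and number are not given in the sources used here. Both cultures had the same serum, stated in the methods to be freed of exosomes by ultracentrifugation, and antibiotics. The RNA of each condition was labelled with Cy3 and hybridised to 1 Agilent miRNA array with 1 colour. There were 2 arrays in all, 1 per condition, which shared a slide and a scan. The spread between cultures could therefore not be measured, no test was possible, and culture, array and oxygen cannot be told apart. Each SD or SE below covers spots of a probe within an array.

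A miRNA hairpin gives a 5p arm and a 3p arm, and one or both of them can be loaded into the silencing complex, where bases 2 to 8 (the seed) pair with target mRNAs. Most hairpins are cut out of longer transcripts by the nuclease Drosha. Mirtrons are short introns, or parts of introns, that fold into hairpins once the spliceosome and the debranching enzyme have released them, so Drosha is not needed for them. The 3p arm of a typical mirtron lies against the splice acceptor. It therefore ends in the AG of the intron and holds the pyrimidine-rich tract in front of it, while the 5p arm opposite is rich in purines. Many miRNAs of this number range were annotated from small RNA sequencing as mirtrons or related intronic hairpins.

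The following mature sequences are those of the 5p arms with the differences described below, from RefSeq (GRCm38.p6), 5′ to 3′. Capitals mark the seed. The first 4 were at least 2-fold lower in hypoxia.
miR-7020-5p: uGGGAUGGuggagagggugaccag
miR-7082-5p: uACGGGCAggaggaggggagg
miR-7031-5p: cCUGAGAGgccugaaggguggga
miR-7045-5p: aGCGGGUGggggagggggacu
The next 4 were at least 2-fold higher in hypoxia, measured on both arrays (miR-7039-5p, miR-7047-5p) or as a bound (miR-7036a-5p, miR-6937-5p). miR-7042-5p, also at least 2-fold higher and measured on both arrays, had no mature sequence in the RefSeq table used and is not shown.
miR-7039-5p: aGAGGGAUggagagcaucgcgu
miR-7047-5p: uGAGGGAGgagggcugggucuga
miR-7036a-5p: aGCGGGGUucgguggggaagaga
miR-6937-5p: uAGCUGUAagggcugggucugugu
The last 3 were detected in normoxia only and lower in hypoxia by a bound of 2-fold or more.
miR-6984-5p: aCUGAAAGgcaaugaaggaggagc
miR-7088-5p: gCAAGUGGuggugaggaggggaaac
miR-6973b-5p: gUAGGUAUggggagaggacaggga
The seeds of these sequences all differed from each other.

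Hairpins are shown for miR-7020-5p and miR-7039-5p, the members with the largest difference in each direction among those measured on both arrays, and for miR-7045-5p, to show how the arms lie to the hairpin's end. The final AG is in capitals.
miR-7020 hairpin: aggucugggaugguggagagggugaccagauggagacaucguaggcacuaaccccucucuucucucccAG
miR-7045 hairpin: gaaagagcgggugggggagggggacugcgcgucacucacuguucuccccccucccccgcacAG
miR-7039 hairpin: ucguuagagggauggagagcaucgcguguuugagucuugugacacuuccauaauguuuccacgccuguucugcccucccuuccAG
In these hairpins the 5p arm began at base 6 and the 3p arm ended with the hairpin. The 3p arm of miR-7020 was 52.4% C and 4.76% G, that of miR-7045 66.7% C and 9.52% G, and that of miR-7039 50% C and 13.6% G. G made up 54.2%, 66.7% and 45.5% of the 5p arms opposite to them.

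Over the block, 177 of the 201 members had a mature sequence in the RefSeq table. Their median G content was 43.5% (range 13.0% to 66.7%) and their median C content 13.6%. The 3p arms of the same numbers showed the mirror image, with a median of 14.3% G and 40.9% C over 175 sequences. The other 486 5p arms with a sequence had a median of 27.3% G. A run of GGG, searched in the mature strand and counted once per miRNA, was found in 134 members (75.7%), against 30.4% of all 1608 matched miRNAs, 28.2% of the other 5p arms and 4.57% of the 3p arms of the block. GGGG, which contains GGG, was found in 37.9% of members and 11.3% of all matched miRNAs. The hairpin ended in AG for 159 of the 172 members with a hairpin sequence (92.4%), against 9.30% of miRNAs outside the number range. The mature 3p arm itself ended in AG in 136 of 175 cases (77.7%). At the other end, the mature 5p arm began with GU in only 15 of 177 members (8.47%), against 4.53% of the other 5p arms. These motif counts describe the letters and not splicing, which was not measured.

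Seeds were mostly different from member to member. The 177 sequences held 156 different seeds, and no seed was shared by more than 3 members. Among the 27 detected members with a sequence, 2 shared a seed, namely miR-6965-5p and miR-7047-5p, both with GAGGGAG. Of all members, 39 had the seed of another member and 39 that of a miRNA outside the block. The gene table placed 172 members, 171 of them within a protein-coding gene and 151 (87.8%) within one on the same strand. For detected members this was 23 of 26 (88.5%). The table gave gene spans and not exons, so whether a hairpin lay in an intron was not read from it.

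Each member had 2 or 3 probes, and each probe 10 to 15 spots (median 15) before outlier spots were left out. Fewer remained afterwards for some, down to 6 in hypoxia for a probe of miR-7024-5p. Detection of a probe required over 50% of its spots to be well above background, and 1 detected probe sufficed for a miRNA. In normoxia 26 of 201 members (12.9%) were detected, against a background of 12.0% of all miRNAs on the array. In hypoxia 17 members (8.46%) were detected, against 10.6% of all miRNAs. On either array 29 members (14.4%) were detected, against 13.0%. The share of members was thus close to that of all miRNAs in normoxia and below it in hypoxia, with no test of the gap. The hypoxia array was outside the software's range for spot CV and labelling spike-in. The part of this in the gap was not tested. A loss of vesicles and a lower amount of RNA per vesicle or cell cannot be told apart in such bulk RNA.

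**Figure D1:**
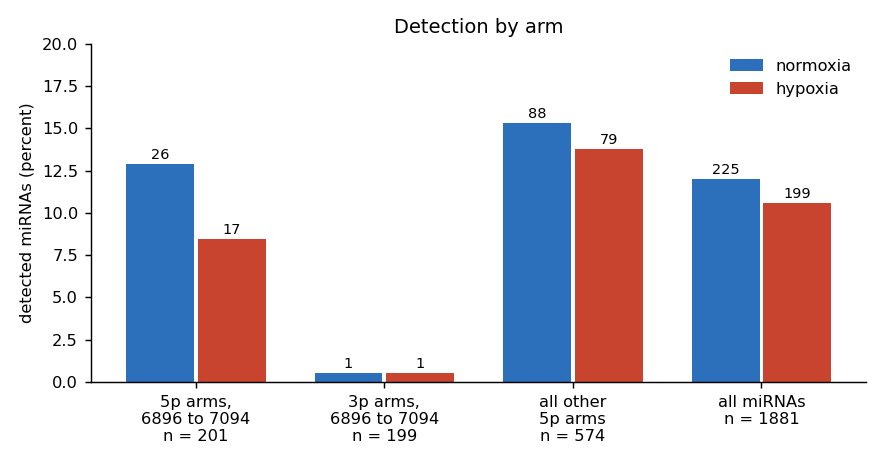
Percent of miRNAs detected on the normoxia array (blue) and the hypoxia array (red) for the 201 5p arms, the 199 3p arms of the same numbers, the 574 other 5p arms and all 1881 miRNAs, with the number detected above each bar. The 5p arms were detected in 26 and 17 cases, and a single 3p arm was detected on either array.

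Detection was almost entirely on the 5p side. Of the 199 3p arms with the same numbers, 1 (0.503%) was detected on both arrays. All 29 detected 5p arms had their 3p arm on the array, and 0 of those 3p arms were detected. The exception, miR-6948-3p, belonged to a hairpin whose 5p arm was not detected. One of its probes read 286 ± 63.8 (processed signal, SD, n = 15 spots) in normoxia and 232 ± 88.4 (n = 15) in hypoxia, and it differed by -0.04 on the log2 scale (SE 0.16). Its second probe was not detected on either array. Different probes bind with different strength, so a dimmer 3p probe is not by itself a lower amount of RNA.

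Detected members were richer in G than the others. The median G content was 52.2% over 27 detected members with a sequence (range 31.8% to 66.7%) and 43.2% over 150 that were not detected. GGG was found in 85.2% of the former and 74.0% of the latter, and GGGG in 44.4% and 36.7%. The same gap was smaller among the other 5p arms, with medians of 30.4% in 79 detected and 27.3% in 407 undetected sequences. The part of G content in the detection of these members was not tested.

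**Figure D2:**
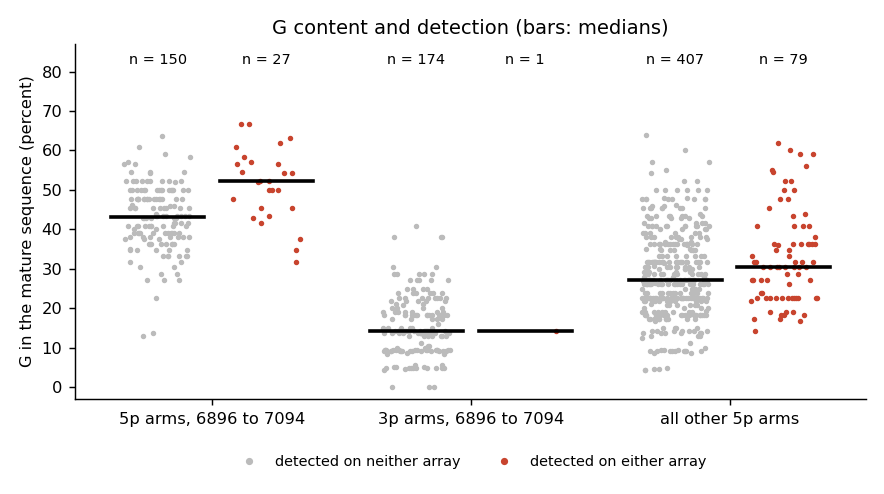
G content of the mature sequence, in percent, of single miRNAs (points, spread sideways at random) with the median as a bar, split by detection on either array (red) or neither (grey). The detected 5p arms of the block have a median of 52.2% and the undetected ones 43.2%, while the 3p arms lie at a median of 14.3%.

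The remaining 172 members were detected on neither array. Their 354 probes ran from -4.19 over a median of -0.28 to 14.1 in normoxia and from -5.68 over -1.12 to 13.2 in hypoxia. The processed signal is the spot after background subtraction, so values around 0 are at background. For 63 of these members every probe was below 0 on both arrays. The lowest signal of any detected probe was 14.5 in normoxia and 13.5 in hypoxia, and below this level the arrays do not show whether a member was present.

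Of the 29 detected members, 14 were measured on both arrays, 12 in normoxia only and 3 in hypoxia only. The 12 were 41.4% of the detected members, against 18.4% of all 244 detected miRNAs and 13.2% of the 91 detected among the other 5p arms. The 3 were 10.3%, against 7.79% of all detected miRNAs. Loss of detection in hypoxia thus made up a larger share of the detected members than of the detected miRNAs as a whole, again with no test. The limit on the quality of the hypoxia array given above holds here as well. The 12 members seen in normoxia only were dim there, with the brighter probe of each between 15.9 and 50.5 (median 29.8), and between 2.62 and 15.1 (median 8.46) in hypoxia.

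**Figure D3:**
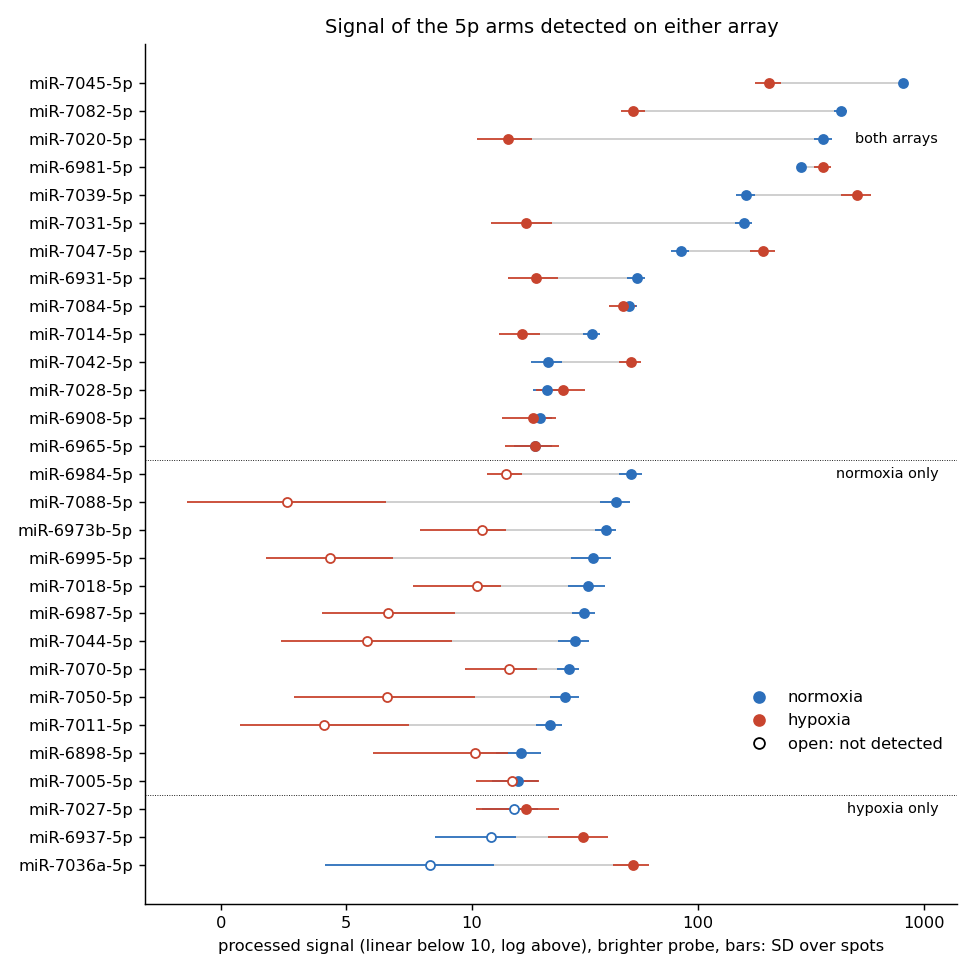
Processed signal of the brighter probe of each detected member in normoxia (blue) and hypoxia (red), on an axis that is linear below 10 and logarithmic above, with bars for the SD over spots and open symbols where the member was not detected. The signals are before scaling of the arrays, each row compares 1 probe with itself, and the 12 members of the middle block were between 15.9 and 50.5 in normoxia.

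The differences between the arrays were computed after quantile normalization of the probe means, as the log2 of hypoxia minus the log2 of normoxia averaged over the probes of a miRNA detected on both arrays. Of the 14 measured members, 3 were at least 2-fold higher in hypoxia, against a background of 18.3% of the 180 miRNAs measured on both arrays. At least 2-fold lower were 4 of 14, against 10.0% of the 180. The other 7 differed by less than 2-fold. The median of the 14 was 0.42, beside 0.17 for all 180 measured miRNAs, and the members ran from -3.90 to 2.00. There were 8 members above 0 and 6 below. Among the 9 members with 2 probes detected on both arrays, both probes had the same sign in all 9, with a median gap of 0.16 and a largest gap of 0.57 on the log2 scale.

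**Figure D4:**
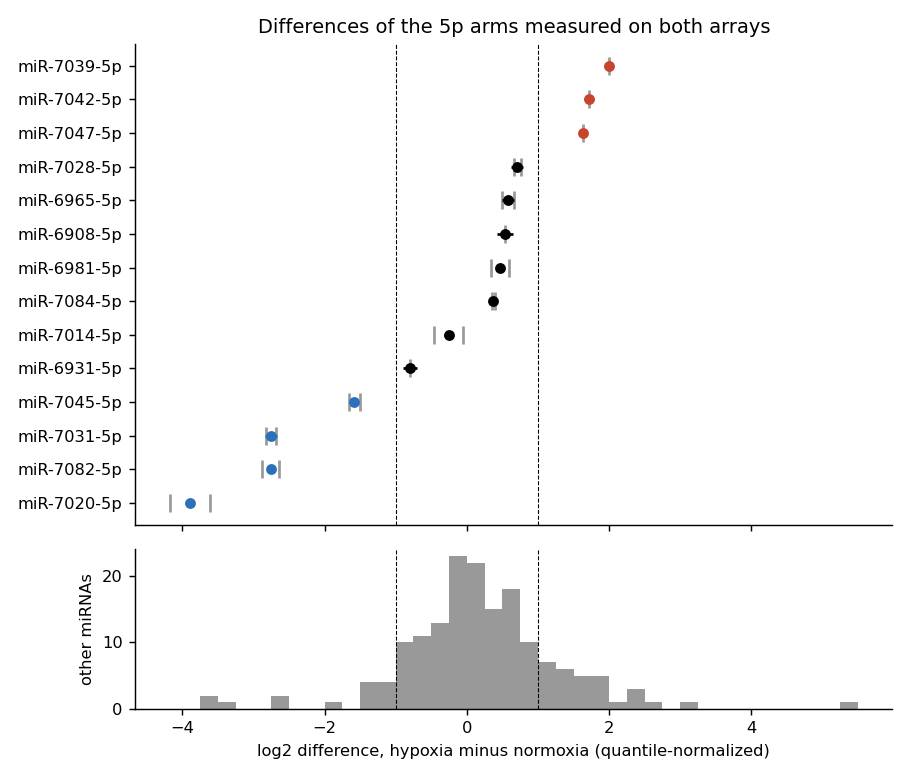
Upper panel: log2 difference, hypoxia minus normoxia, of the 14 measured members (points, with the SE over spots as bars) and of their single probes (grey ticks), with dashed lines at 2-fold. Lower panel: number of other miRNAs per bin of the same difference; 4 members lie below the lower line, down to -3.90, and 3 above the upper line, up to 2.00.

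The members lower in hypoxia were miR-7020-5p, miR-7082-5p, miR-7031-5p and miR-7045-5p. miR-7020-5p lies within Aldh4a1, which encodes a mitochondrial enzyme of proline breakdown. Its first probe read 356 ± 32.1 (n = 15) in normoxia and 14.4 ± 3.97 (n = 15) in hypoxia, where 8 of 15 spots were well above background. Its second probe read 346 ± 19.1 (n = 15) and 18.5 ± 3.53 (n = 15). The spots of the arrays were far apart for both probes, and the log2 difference was -3.90 (SE 0.065), with -4.18 and -3.61 for the single probes. In hypoxia both probes stood just above the detection limit, so the size of the difference rests on signals near background. With normexp background correction the difference was -2.16.

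miR-7082-5p lies within Raver1, which encodes an RNA-binding protein that works with the splicing repressor PTB. One probe read 365 ± 22.6 (n = 15) in normoxia and 38.9 ± 6.40 (n = 15) in hypoxia, and the other 427 ± 28.5 (n = 15) and 51.7 ± 6.23 (n = 15). Every spot was well above background on both arrays, and the log2 difference was -2.76 (SE 0.042). miR-7031-5p lies within Sh2b3, which encodes the adaptor LNK, a brake on cytokine signalling in blood cells. Its probes read 154 ± 10.9 (n = 14) and 160 ± 13.8 (n = 15) in normoxia, and 15.0 ± 5.01 (n = 15) and 17.3 ± 5.19 (n = 15) in hypoxia. The log2 difference was -2.75 (SE 0.086), and like miR-7020-5p this miRNA was barely detected in hypoxia, with 8 and 9 of 15 spots well above background. Its difference with normexp, under the same offset, was -1.27.

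miR-7045-5p lies within Chd4, which encodes the ATPase of the NuRD chromatin remodelling complex. Its probes read 799 ± 36.5 (n = 14) and 806 ± 30.9 (n = 13) in normoxia, and 231 ± 20.4 (n = 15) and 206 ± 27.3 (n = 14) in hypoxia. Its log2 difference was -1.58 (SE 0.033), and it was far above background on both arrays. It was at least 2-fold lower under 4 of the 5 scalings of the arrays that were tried and -0.95 under the fifth, which set each array by the 75th percentile of all probes. The other 3 lower members were at least 2-fold lower under all 5.

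The blood cell markers that were detected read lower in hypoxia, as these members did. miR-142a-3p, miR-142a-5p, miR-486a-5p and miR-150-5p were detected on neither array. Of 7 blood miRNAs, 3 were detected in normoxia and 1 in hypoxia, and their summed processed signal was 504 and 36.7. The main part was miR-451a of red cells, with 448 in normoxia and 26.5 in hypoxia (log2 difference -3.66). miR-122-5p of liver, which circulates in blood plasma and serum, read 78.5 in normoxia and 7.04 in hypoxia, where it was not detected. Of 7 mesenchymal stromal markers, 6 were detected on both arrays (not miR-145a-5p), with summed signals of 28220 and 24332. Most of both sums came from miR-21a-5p (17276 and 14013) and miR-22-3p (10180 and 9564). The next brightest, miR-199a-3p, read 548 and 464. No epithelial (0 of 5), neural (0 of 2) or muscle marker (0 of 2) was detected. The part of blood or serum RNA in the members lower in hypoxia was not tested.

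The members higher in hypoxia were miR-7039-5p, miR-7042-5p and miR-7047-5p, each measured by a single probe. miR-7039-5p lies within Smurf1, which encodes a ubiquitin ligase that limits BMP signalling. Its probe read 162 ± 15.5 (n = 15) in normoxia and 505 ± 77.6 (n = 13) in hypoxia, a log2 difference of 2.00 (SE 0.071). Its other probe was below 0 on both arrays (-4.03 and -3.91), so the 2 probes of this miRNA disagreed on whether it was there at all. For miR-7042-5p the probe detected on both arrays read 21.7 ± 3.38 (n = 15) and 50.2 ± 5.54 (n = 13), a log2 difference of 1.71 (SE 0.073). The second probe of miR-7042-5p was not detected (3.55 and 8.01), and the log2 difference of this miRNA with normexp was 0.59, under 2-fold. For signals this dim the offset of normexp made 2-fold hardly reachable.

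The brighter probe of miR-7047-5p read 83.8 ± 7.65 (n = 15) in normoxia and 193 ± 24.2 (n = 14) in hypoxia, a log2 difference of 1.63 (SE 0.059). The other probe was at 7.76 ± 2.58 (n = 15) in normoxia with 0 of 15 spots well above background, and at 21.6 ± 5.50 (n = 15) with 14 of 15 in hypoxia, so both probes were higher there. All 3 higher members kept a difference of at least 2-fold under all 5 scalings. miR-6965-5p, which has the same seed as miR-7047-5p, read 18.2 ± 3.53 (n = 14) and 18.9 ± 3.61 (n = 15) in normoxia and 17.5 ± 4.71 (n = 15) and 19.1 ± 5.08 (n = 15) in hypoxia. Its log2 difference was 0.58 (SE 0.087), under 2-fold.

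The smallest differences after quantile normalization were those of miR-7014-5p, miR-7084-5p and miR-6981-5p. miR-7014-5p, within the extracellular matrix gene Ecm1, read 33.2 ± 3.37 (n = 15) and 33.9 ± 2.97 (n = 15) in normoxia and 18.7 ± 3.49 (n = 15) and 16.6 ± 3.34 (n = 15) in hypoxia, and differed by -0.26 (SE 0.057) after normalization. Over the scalings its difference ran from -0.93 without normalization to -0.0037 by the 75th percentile of all probes. miR-7084-5p, within the transcription elongation factor gene Elof1, read 49.4 ± 4.08 (n = 14) and 46.4 ± 4.91 (n = 15) in normoxia. In hypoxia it read 46.7 ± 6.25 (n = 15) and 43.0 ± 7.28 (n = 15), and its log2 difference was 0.37 (SE 0.048). Here the scaling decides the sign, since without normalization the difference was -0.10.

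miR-6981-5p read 284 ± 11.7 (n = 13) and 280 ± 18.0 (n = 15) in normoxia and 356 ± 30.7 (n = 14) and 290 ± 31.3 (n = 15) in hypoxia. Every spot of both probes was well above background on both arrays, the log2 difference was 0.46 (SE 0.030), and it stayed above 0 under all 5 scalings, from 0.19 to 1.11. Under 2-fold after quantile normalization were also miR-7028-5p, miR-6908-5p and miR-6931-5p. miR-7028-5p differed by 0.71 (SE 0.085; 1.11 when set by the 75th percentile of all probes), and miR-6908-5p by 0.54 (SE 0.11). miR-6931-5p was lower by its detected probe, from 53.4 ± 4.79 (n = 15) to 19.2 ± 4.78 (n = 15), with a log2 difference of -0.80 (SE 0.099). Its second probe fell below detection in hypoxia (19.0 and 4.01). miR-6931-5p was beyond 2-fold lower under 3 of the 5 scalings, with -1.16 by the 75th percentile over doubly detected probes, -1.48 without normalization and a value just past the 2-fold line by the labelling spike-ins.

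Members detected on 1 array only have a bound in place of a difference, the brighter signal over the higher of the dim probe's own signal and the lowest detected signal of that array, after normalization. At least 2-fold higher in hypoxia by such a bound were 2 members, against 14.1% of the 64 miRNAs detected on 1 array only. miR-7036a-5p lies within Srrt, whose product links the cap of nascent RNA to its processing. It read 8.34 ± 4.19 (n = 15) and 8.52 ± 5.67 (n = 15) in normoxia and 51.4 ± 9.26 (n = 14) and 45.7 ± 4.25 (n = 14) in hypoxia, at least 5.15-fold higher. Its probes had at most 2 of 15 spots well above background in normoxia and all spots in hypoxia. miR-6937-5p read 12.1 ± 3.53 (n = 15) in normoxia and 30.8 ± 9.12 (n = 15) in hypoxia by 1 probe, at least 3.07-fold higher, and its second probe was not detected on either array. With normexp both bounds were under 2-fold, at 0.77 for miR-7036a-5p and 0.47 for miR-6937-5p on the log2 scale. Its offset made 2-fold hardly reachable here as well. The last member seen in hypoxia only, miR-7027-5p, had a bound of 1.67-fold.

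At least 2-fold lower by a bound were 3 of the members detected on 1 array only, against 12 of the 64 miRNAs (18.8%). The higher and the lower count were thus both near the share over all such miRNAs. miR-6984-5p, within the mitochondrial ribosomal protein gene Mrpl21, read 49.1 ± 4.97 (n = 15) and 50.5 ± 5.69 (n = 14) in normoxia and 13.9 ± 2.75 (n = 15) and 14.2 ± 2.50 (n = 13) in hypoxia, at least 2.51-fold lower. miR-7088-5p, within Mst1, read 31.4 ± 4.65 (n = 14) and 43.2 ± 6.43 (n = 15) in normoxia. In hypoxia its probes were at 2.40 ± 3.78 (n = 15) and 2.62 ± 3.95 (n = 15), near background, and the bound was at least 2.33-fold lower. miR-6973b-5p read 25.0 ± 5.32 (n = 15) and 39.1 ± 4.09 (n = 15) in normoxia and 6.35 ± 5.95 (n = 15) and 11.0 ± 3.11 (n = 15) in hypoxia, at least 2.07-fold lower. These 3 calls ended under several settings, though the offset of normexp made 2-fold hardly reachable for signals this dim. On the log2 scale the bounds of miR-6984-5p, miR-7088-5p and miR-6973b-5p were -0.90, -0.75 and -0.60 by the 75th percentile of all probes, -0.44, -0.35 and -0.31 with normexp, and -0.61, -0.42 and -0.25 where every spot had to pass. Of the other 9 members seen in normoxia only, 7 had bounds from 1.16-fold to 1.73-fold. For 2 of them, miR-6898-5p and miR-7005-5p, the bound was under 1 and no fold is given.

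**Figure D5:**
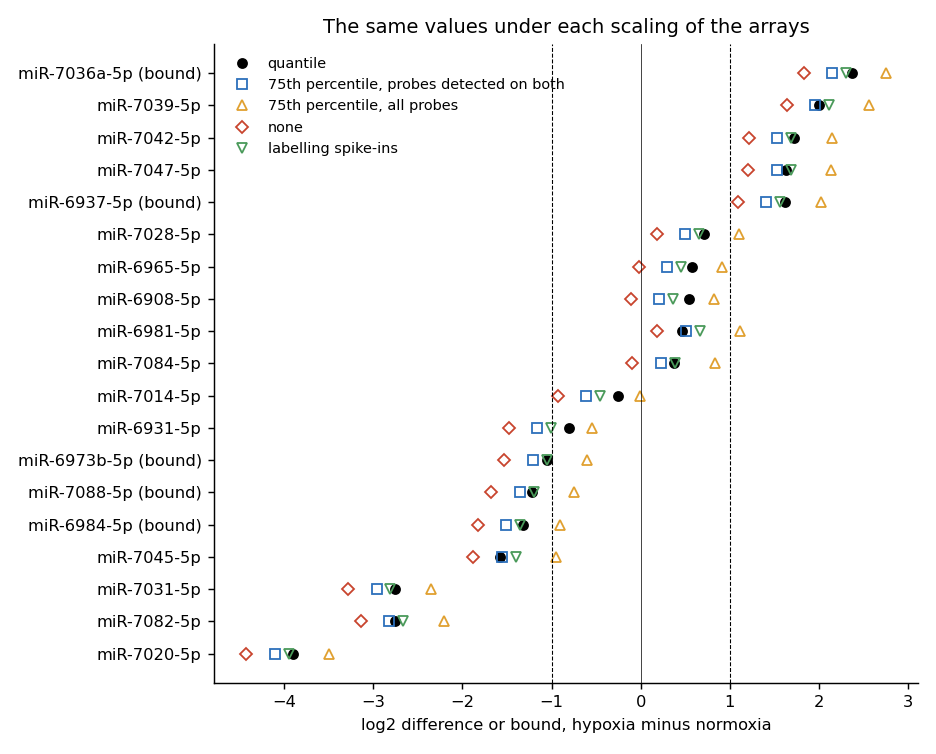
Log2 difference, or log2 of the bound where marked, of the 19 named members under quantile normalization (filled circles) and 4 other scalings (open symbols), with dashed lines at 2-fold. The shifts from the quantile result differ between members, and miR-7020-5p, miR-7082-5p, miR-7031-5p, miR-7039-5p, miR-7042-5p and miR-7047-5p stay beyond 2-fold under all 5.

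Quantile normalization and the other scalings differed by amounts that were not the same for every member. The other scalings set each array by a single factor or by none. They therefore shift all members alike and are not independent of each other. Relative to the quantile result, the median of all 180 measured miRNAs shifted by -0.12 when the arrays were set by the 75th percentile over doubly detected probes, 0.49 by that of all probes, -0.44 without normalization and 0.04 with the labelling spike-ins. Relative to the median of all measured miRNAs, there were again 3 members 2-fold or more higher and 4 members 2-fold or more lower. Beside that median, 8 members were above and 6 below. miR-7020-5p ranged from -4.42 to -3.50, miR-7082-5p from -3.14 to -2.21 and miR-7031-5p from -3.28 to -2.36. On the higher side miR-7039-5p ranged from 1.64 to 2.56, miR-7042-5p from 1.21 to 2.14 and miR-7047-5p from 1.21 to 2.13.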

How the data were processed

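Exosomal RNA of BMSCs from normoxia and hypoxia was measured on 2 arrays, 1 per condition. The deposited intensity values are those of Feature Extraction 11.5.1.1 per the file headers, which subtracted the background of each spot and flagged outlier spots. The deposited flags are 0 or 1, and the deposited value table held the same processed signal (largest difference 0). The labels describe a labelling by reverse transcription, whereas the methods name the Agilent miRNA kit.

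Spots with any of 4 outlier flags (2.96% in normoxia, 3.45% in hypoxia) were left out, and no spot was saturated. Of all spots, 9.96% and 8.59% were well above background. The median spot CV of the software was 9.68% in normoxia and 15.8% in hypoxia, and on the hypoxia array this and the labelling spike-in were outside the software's range. Spots were averaged per probe and quantile-normalized, as the study states, in Python 3.11.15 with numpy 2.4.6 and pandas 2.3.3. Normexp background correction (offset 50), an alternative, came from limma 3.58.1 under R 4.3.3. The calculation was tested on simulated data. With 1 array per condition no p-value was computed, and the number of arrays limits the precision.

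Named members were those with a difference or bound of 2-fold or more, the 5 brightest per array and the 3 nearest 0, and the detected 3p arm. miR-6931-5p, miR-6908-5p, miR-6965-5p and miR-7028-5p were named to account for all members measured. Of the members with smaller or no bounds, miR-7027-5p, miR-6898-5p and miR-7005-5p were named. The other 7, seen in normoxia only, were given by their range. The rule for members uses names only, but this number range and the marker lists were chosen with earlier results of these data known. Sequences and gene names are of GRCm38.p6 and the array design names mm9, so no coordinates are given.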

Additional observations from a re-analysis of the deposited data

How the results depend on the processing

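Of 188 values of the 19 named members under the alternatives, 117 moved by less than the SD over spots, 67 moved by more with the same sign, and 4 changed sign, all below 2-fold: miR-6908-5p (-0.11), miR-6965-5p (-0.021) and miR-7084-5p (-0.096) without normalization, and miR-7014-5p (0.045) when all spots of a probe were required to pass. The median over measured members was 0.22 when arrays were set by the 75th percentile over doubly detected probes, 0.82 by that of all probes, -0.10 without normalization, 0.12 with normexp and 0.087 with the software's own calls and summed signal. Scaling by the 75th percentile of all probes gave 5 measured members higher and 3 lower, and by a bound 3 higher and 0 lower. No normalization gave 7 lower by a bound. Normexp gave 0 higher and 0 lower by a bound. Requiring every spot left 8 members detected in hypoxia, so fewer members could be measured (7). Of these, 3 were higher and 2 lower, and by a bound 1 member was higher and 2 were lower. The software's calls gave 5 higher and 8 lower, and 1 higher and 6 lower by a bound. Without a filter on dim probes 5 were higher, and both medians (members and all miRNAs) were 0.43, the ratio of the floors. The cause of the other shifts was not tested. No paired analysis was possible because there was 1 array for each condition, and leaving out a replicate could not be done. Signals near the detection limit bound what can be said of miR-7020-5p and miR-7031-5p in hypoxia.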
